A study of Mus musculus with 5 samples.

Results

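The mitochondrial complex I genes of the injured mouse kidney are described here. Of 35478 genes listed, 55 were taken: every gene whose symbol begins with Ndufa, Ndufb, Ndufc, Ndufs, Ndufv, Ndufab or Ndufaf and ends in a number with at most 1 letter after it, and in addition Timmdc1, Ecsit, Foxred1, Acad9, Tmem126b and Nubpl. They comprise 37 subunits, 14 assembly factors and 4 other genes, namely Ndufa4 and the near copies Ndufb4b, Ndufb4c and Ndufs6b. Bulk RNA-seq was performed on the left kidney of 5 male mice, 11 days after unilateral ischemia-reperfusion injury (UIRI). The mice were 7 to 8 weeks old at surgery. Their strain is C57BL/6J in the labels and C57BL/6J;129 in the methods. The left pedicle was clamped for 35 minutes at 38.5°C, and the right kidney was removed on day 10, 24 hours before collection. The 2 genotypes were compared. PRDM16flox/flox mice (n = 2, mice 1 and 3) carry loxP sites around exon 9 of Prdm16 and served as controls, and Ksp-Cre/PRDM16flox/flox mice (n = 3, mice 1, 2 and 3) carry the same allele together with Cre driven by the promoter of Cdh16 (kidney-specific cadherin, Ksp), which is active in tubular epithelium. All 5 kidneys were injured, and each library is 1 mouse. The labels give the tissue as kidney and the methods as kidney cortex.

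Complex I (NADH:ubiquinone oxidoreductase) is the first enzyme of the respiratory chain. It takes electrons from NADH, passes them along iron-sulfur clusters to ubiquinone and pumps protons across the inner mitochondrial membrane. It is built from modules: the N module oxidizes NADH, the Q module reduces ubiquinone, and the P module in the membrane pumps protons. The core subunits are conserved in bacteria, and the flavin and iron-sulfur clusters lie in core subunits of the N and Q modules. The accessory subunits surround the core, and assembly factors help to build the enzyme without staying in it. The membrane core is encoded by mitochondrial DNA, whose genes were not analysed here. The tubular epithelium of the kidney is rich in mitochondria, above all the proximal tubule, and most of its ATP comes from oxidative phosphorylation.

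Many promoters of respiratory chain genes hold sites for NRF1, the ETS factor GABP, YY1 or the estrogen-related receptors (ERR), the factors through which PGC-1α acts on mitochondrial genes. RefSeq promoter windows (GRCm38.p6, 250 bases before to 50 bases after the start) were found for 47 of the 55 members, including 33 subunits and 12 assembly factors. The 90 bases before the start follow for the subunits with the lowest and the highest log2 fold change (Ndufc1 and Ndufb8), for 3 subunits called lower that hold an NRF1-type string (Ndufb4, Ndufa11 and Ndufs6), and for an assembly factor with several GABP/ETS-type strings (Timmdc1). Capitals mark an NRF1-type (GCGCANGCG) or a GABP/ETS-type (CCGGAAG) string, read on both strands; a string that reads the same on both strands is marked once.
Ndufc1 (chr3:51408956-51409045, minus strand): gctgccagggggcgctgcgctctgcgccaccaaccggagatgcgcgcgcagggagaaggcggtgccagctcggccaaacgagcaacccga
Ndufb8 (chr19:44555443-44555532, minus strand): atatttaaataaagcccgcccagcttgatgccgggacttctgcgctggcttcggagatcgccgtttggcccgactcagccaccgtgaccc
Ndufb4 (chr16:37654369-37654458, minus strand): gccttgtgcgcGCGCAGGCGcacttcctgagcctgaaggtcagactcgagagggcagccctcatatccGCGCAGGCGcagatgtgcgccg
Ndufa11 (chr17:56717672-56717761, plus strand): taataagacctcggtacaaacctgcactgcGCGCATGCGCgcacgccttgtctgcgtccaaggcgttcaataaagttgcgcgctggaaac
Ndufs6 (chr13:73328483-73328572, minus strand): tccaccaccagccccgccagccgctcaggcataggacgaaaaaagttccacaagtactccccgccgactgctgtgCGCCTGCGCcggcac
Timmdc1 (chr16:38522664-38522753, minus strand): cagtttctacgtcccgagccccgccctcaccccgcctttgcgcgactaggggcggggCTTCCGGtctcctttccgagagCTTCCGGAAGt

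Over the whole 300-base window, the NRF1-type string was found in 8 of 33 subunit promoters (24.2%), against 10.9% of the 16488 promoters of tested genes and 6.25% of all 32851 promoters. The YY1-type string (AAGATGGCG) was found in 5 of 33 (15.2%), against 2.43% and 1.4%, and in these, Ndufc1, Ndufs7, Ndufa9, Ndufs6 and Ndufs4, it began between positions 23 and 36 counted from the start. The GABP/ETS-type string was found in 4 of 33 (12.1%, against 14.8% and 8.86%), and the ERR-type string (CAAGGTCA) in 1 of 33, that of Ndufs5 (3.03%, against 1.18% and 1.56%). Among the 12 assembly factors, 4 held the GABP/ETS-type, 2 the NRF1-type and 2 the YY1-type string. The 8 subunits with an NRF1-type string had a median log2 fold change of -0.91 between genotypes, and the 25 without it one of -0.83. For the YY1-type string the medians were -0.88 with it and -0.85 without it. Whether subunits with and without a string differ was not tested. A match is only a run of letters in this window, and it does not show that a factor binds there.

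Total counts were between 14939040 and 16425161 per library. The filter kept 16394 genes, including all 55 members. The count of a subunit in a library was between 445 and 6253 and that of an assembly factor between 134 and 1398, so that counting error was small for most. Values are given as CPM, counts per 1000000 after scaling with edgeR's TMM factors, always in the order PRDM16flox/flox mice 1 and 3, then Ksp-Cre/PRDM16flox/flox mice 1, 2 and 3. A log2 fold change is Ksp-Cre/PRDM16flox/flox minus PRDM16flox/flox from edgeR's quasi-likelihood test, and calls were made where p, adjusted by Benjamini-Hochberg over all genes tested, was under 0.05. The targeted gene, Prdm16, was at 25.3 and 20.0 CPM in the PRDM16flox/flox mice and at 17.1, 17.0 and 18 CPM in the Ksp-Cre/PRDM16flox/flox mice, a log2 fold change of -0.38 that was not called (adjusted p = 0.259). Its count covers every cell of the tissue and the whole gene, not exon 9 alone. One library stood apart: log2 CPM of Ksp-Cre/PRDM16flox/flox mouse 3 correlated across genes at 0.957 and 0.960 with the other Ksp-Cre/PRDM16flox/flox mice, which correlated at 0.991 with each other. Some results that rest on that mouse are given with and without it, and the others with all 5 mice only. The 5 mice allow 10 splits into groups of 2 and 3, so that the smallest one-sided p an exact permutation test can reach for 1 gene is 0.1.

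Complex I subunits were lower in the Ksp-Cre/PRDM16flox/flox kidney as a group. For all 37, each of the 3 Ksp-Cre/PRDM16flox/flox mice lay below both PRDM16flox/flox mice, an arrangement seen for 21.3% of all genes tested. Of the 37, 12 were called lower and none higher, against 0.872% of all genes called lower, and 6 of the 12 had a log2 fold change of -1 or less as well, against 0.628% of all genes. The median log2 fold change of the subunits was -0.84 (range -1.32 to -0.50), which leaves 55.8% of the control level, and that of all genes tested was 0.04. All 37 had an unadjusted p under 0.05, as did 11.2% of all genes in the lower direction. The summed level of the subunits was 6461 and 7471 CPM in the PRDM16flox/flox mice and 4279, 3852 and 3922 CPM in the Ksp-Cre/PRDM16flox/flox mice, that is 6966 ± 715 (SD, n = 2) against 4018 ± 229 (SD, n = 3). No mouse of either genotype reached the range of the other.

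The calls themselves were borderline. Adjusted p-values of the 12 called subunits were between 0.0337 and 0.0498, those of 11 more lay between 0.05 and 0.055, and only 4 subunits were at 0.1 or above. The number called therefore depended on the tool and on single mice, whereas the direction was the same in every setting run. DESeq2 called all 37 subunits lower (5.96% of all genes it tested), and so did edgeR without Ksp-Cre/PRDM16flox/flox mouse 3 (11.0% of all genes), where the median was -0.81. Leaving out any other mouse brought the number called to 0, with medians between -0.94 and -0.74. In those fits edgeR called 0 genes of any kind, with 1330 to 2514 at an unadjusted p under 0.05. In the text, "lower" without a call refers to the measured values.

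**Figure D1:**
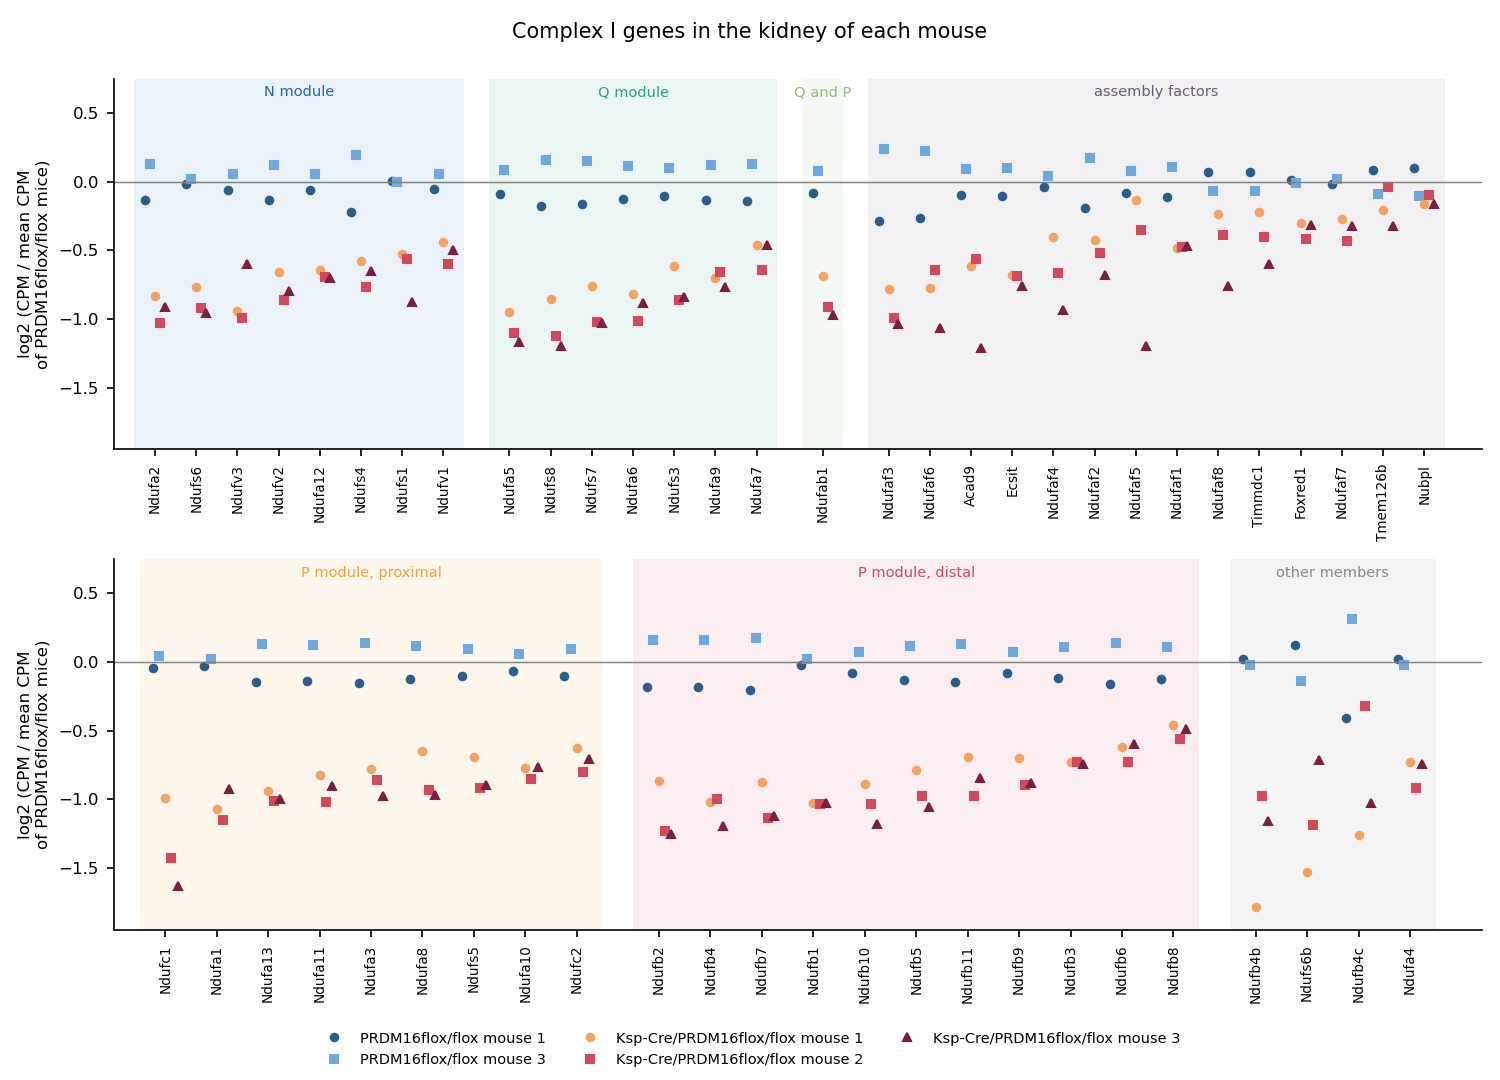
Level of each reported member in each mouse, as log2 of its CPM over the mean CPM of the PRDM16flox/flox mice (y axis), grouped by module and ordered within a group by log2 fold change. Blue points are the 2 PRDM16flox/flox mice and warm colours the 3 Ksp-Cre/PRDM16flox/flox mice; the colours do not mix in any subunit, and they mix in the assembly factors Tmem126b and Nubpl and in the near copy Ndufb4c.

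The N module, which oxidizes NADH at the tip of the matrix arm, had the highest module median without a length correction. Its 8 subunits had a median log2 fold change of -0.73 (range -0.92 to -0.51), and 2 were called. Ndufv1, which binds NADH and the flavin that accepts its electrons, was at 296 and 319 CPM in PRDM16flox/flox mice and at 226, 202 and 218 CPM in Ksp-Cre/PRDM16flox/flox mice, the smallest difference of the module (log2 fold change -0.51, SE 0.12, adjusted p = 0.107). Its partner Ndufv2, which carries an iron-sulfur cluster, was at 251 and 300.4 CPM against 174, 152 and 159 CPM (log2 fold change -0.77, SE 0.14, adjusted p = 0.0605). Ndufs1, the largest subunit, which relays electrons through several clusters, was at 221 and 219 CPM against 152, 149 and 120 CPM (log2 fold change -0.65, SE 0.14, adjusted p = 0.0914). In all 3 of these cofactor-bearing subunits the genotypes were apart, with the lowest value of Ndufs1 in Ksp-Cre/PRDM16flox/flox mouse 3. The called subunits were both accessory. Ndufa2, a thioredoxin-like subunit, was the member of the module that fell most, from 128 and 154 CPM to 79.1, 69.2 and 74.8 CPM (log2 fold change -0.92, SE 0.13, adjusted p = 0.0447), and the zinc-binding Ndufs6 fell by 0.88 on the log2 scale (adjusted p = 0.0412). Ndufs4, whose loss in patients causes Leigh syndrome, had a log2 fold change of -0.66 (adjusted p = 0.101), Ndufa12 one of -0.68 and Ndufv3 one of -0.83.

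In the Q module, where ubiquinone is reduced, the 8 subunits had a median log2 fold change of -0.84 (range -1.07 to -0.52), and 2 were called, again accessory ones. Ndufa5 fell most, from 130 and 147 CPM to 71.8, 64.3 and 61.5 CPM (log2 fold change -1.07, SE 0.12, adjusted p = 0.0412). The other was Ndufa6, a LYR protein that anchors an acyl carrier protein to the matrix arm (log2 fold change -0.90, adjusted p = 0.0484). Of the core subunits, Ndufs8, which holds a pair of iron-sulfur clusters, was at 149 and 188 CPM against 93.6, 77.5 and 73.7 CPM, a log2 fold change of -1.05 (SE 0.16) that just missed the threshold (adjusted p = 0.0505). Ndufs7, which carries the last cluster before ubiquinone, was at 153 and 190.1 CPM against 101, 84.6 and 83.9 CPM (log2 fold change -0.93, SE 0.15, adjusted p = 0.0541). Ndufs3 was at 223 and 256 CPM against 156, 132 and 134 CPM (log2 fold change -0.77, SE 0.14, adjusted p = 0.0620). The smallest difference was that of the accessory Ndufa7, at 114 and 137 CPM against 91.1, 80.2 and 91.3 CPM (log2 fold change -0.52, SE 0.13, adjusted p = 0.121). Ndufa9, a nucleotide-binding subunit near the membrane, had a log2 fold change of -0.71 (adjusted p = 0.0626). In none of the 8 did the groups overlap.

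Ndufab1, the mitochondrial acyl carrier protein, sits in both the Q module and the distal membrane arm and also serves fatty acid synthesis in the mitochondrion. Its level was 160 and 179 CPM in PRDM16flox/flox mice and 105, 89.8 and 86.4 CPM in Ksp-Cre/PRDM16flox/flox mice (log2 fold change -0.85, SE 0.13, adjusted p = 0.0523). The groups did not overlap.

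The P module held 8 of the 12 calls and 20 of the 37 subunits. Its 20 nuclear-encoded subunits are all accessory, since the proton-pumping core is mitochondrial. Their median log2 fold change was -0.89, and 8 of the 20 were called. In the proximal part, next to the matrix arm, the 9 subunits had a median of -0.87 (range -1.32 to -0.71), and 5 were called. Ndufc1, a small membrane subunit, had the strongest change of all subunits, from 89.3 and 94.6 CPM to 46.4, 34.1 and 29.7 CPM (log2 fold change -1.32, SE 0.20, adjusted p = 0.0498). The Ksp-Cre/PRDM16flox/flox mice differed more among themselves for this gene than for the other proximal subunits, and without mouse 3 the log2 fold change was -1.19. Ndufa1, an X-linked membrane subunit needed for assembly, fell from 88.1 and 91.4 CPM to 42.9, 40.5 and 47.4 CPM (log2 fold change -1.04, SE 0.11, adjusted p = 0.0366). Ndufa13, also known as GRIM-19, had a log2 fold change of -0.98 (adjusted p = 0.0412), Ndufa11 one of -0.91 (adjusted p = 0.0447) and Ndufa10, a relative of nucleoside kinases, one of -0.79 (adjusted p = 0.0465). The smallest difference was in Ndufc2, at 174 and 199 CPM against 121, 107 and 114 CPM (log2 fold change -0.71, SE 0.12, adjusted p = 0.0573).

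In the distal part of the membrane arm, the 11 Ndufb subunits had the lowest module median without a length correction, -0.93 (range -1.11 to -0.50), and 3 were called. Ndufb1 had the lowest adjusted p of all members and replicates that lay close together: 60.6 and 62.4 CPM against 30.1, 30.0 and 30.2 CPM (log2 fold change -1.03, SE 0.10, adjusted p = 0.0337). Ndufb4 fell from 201 and 254 CPM to 112, 114 and 99.5 CPM (log2 fold change -1.07, SE 0.15, adjusted p = 0.0431) and Ndufb10 from 245 and 272 CPM to 140.0, 127 and 114 CPM (log2 fold change -1.03, SE 0.14, adjusted p = 0.0412). The lowest log2 fold change of the distal part was that of Ndufb2, which was not called: 83.7 and 105.7 CPM against 52.0, 40.3 and 39.7 CPM (log2 fold change -1.11, SE 0.17, adjusted p = 0.0516). Ndufb8, a subunit often used as the marker of complex I in Western blots, showed the smallest difference of all 37 subunits, 381 and 449 CPM against 302, 282 and 297 CPM (log2 fold change -0.50, SE 0.13, adjusted p = 0.129). The other 6 Ndufb subunits had log2 fold changes between -1.04 (Ndufb7) and -0.64 (Ndufb6).

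**Figure D2:**
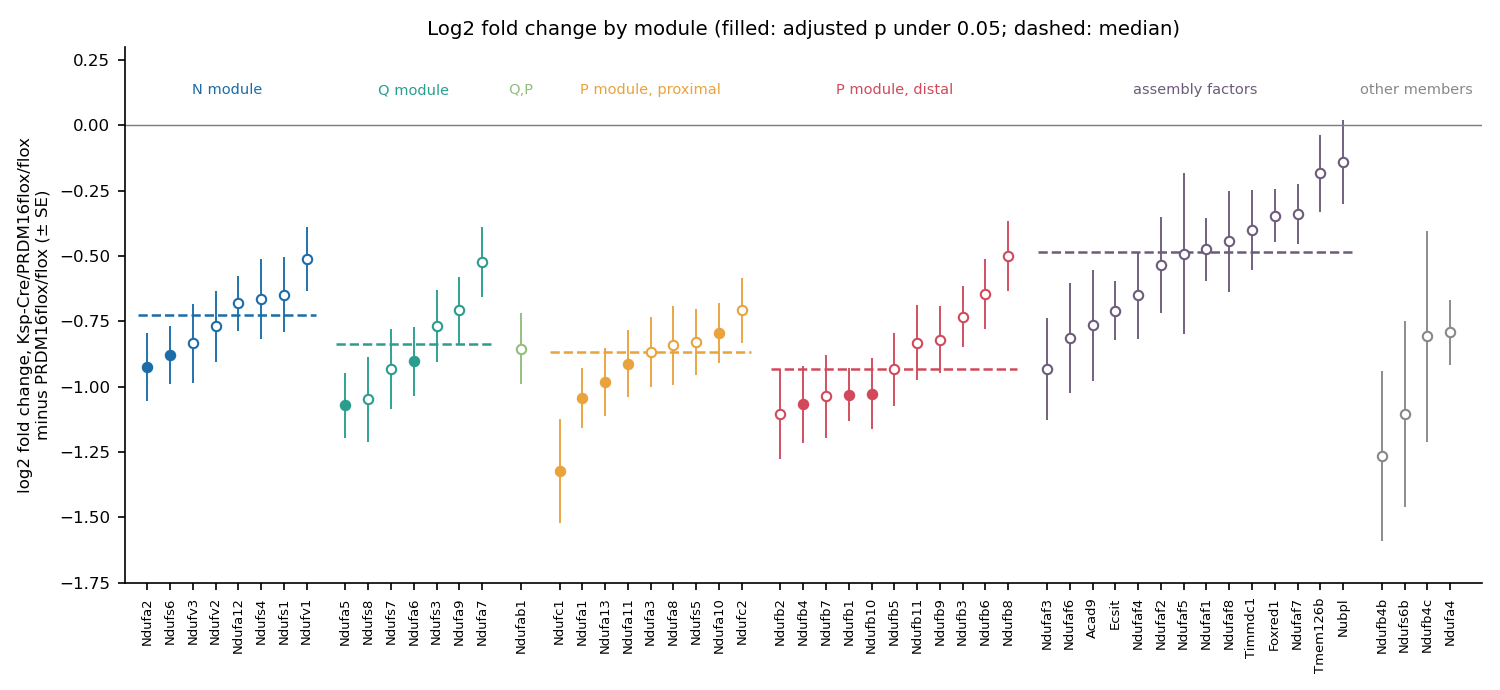
Log2 fold change of each reported member between genotypes (y axis, points with SE from edgeR), by module; filled points have an adjusted p under 0.05 and dashed lines are medians. Without a length correction, medians go from -0.73 in the N module to -0.93 in the distal P module and are -0.48 for the assembly factors, none of which is filled.

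None of the 7 core subunits was called (median log2 fold change -0.77), and the 12 called subunits came from the 30 accessory ones (median -0.86). Whether the classes differ was not tested. Gene length went with the difference: across the 37 subunits the log2 fold change correlated with log2 gene length at r = 0.51, against 0.17 across all genes tested. These points share their libraries and are not independent. The median length was 1608 bp for core and 722 bp for accessory subunits, 936 bp for all subunits, 2456 bp for assembly factors and 3646 bp for all genes tested. With a length trend removed from each library, the subunit median moved from -0.84 to -0.53 and 0 were called (lowest adjusted p = 0.0557). In that fit 73 of all 16394 genes were called lower, against 143 without the correction. The core median of -0.65 then lay below the accessory median of -0.52, the reverse of their order without the correction. The order of the modules also went: their medians were then -0.52 (N), -0.52 (Q), -0.59 (proximal P) and -0.54 (distal P). All 37 subunits stayed lower with that correction. The part of gene length in the result was not tested beyond this correction.

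**Figure D3:**
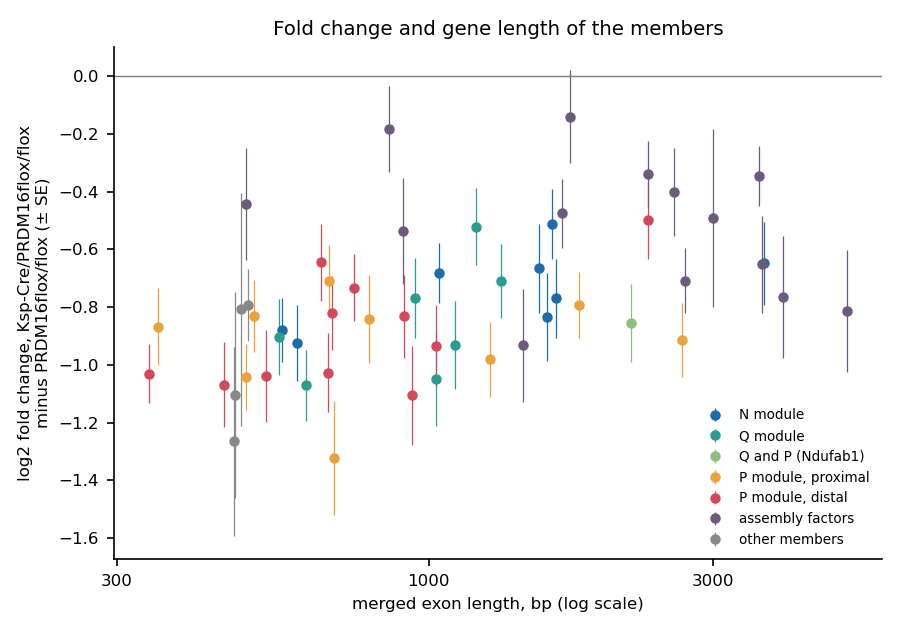
Log2 fold change of each reported member (y axis, with SE) against its merged exon length in bp (x axis, log scale), coloured by module. Short subunits tend to lie lower than long ones (r = 0.51 across 37 subunits), and the assembly factors reach up to -0.14 (Nubpl).

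Since TPM divides by gene length, it allows levels to be compared between genes within a library. In PRDM16flox/flox mice mean TPM of the subunits ran from 93.8 (Ndufa11) to 1089 (Ndufb4), and that of the assembly factors from 11.2 (Ndufaf6) to 87.7 (Ndufaf8), so that each assembly factor was below every subunit. Summed subunit TPM was 16497 ± 649 (SD, n = 2) in PRDM16flox/flox mice and 10829 ± 1146 (SD, n = 3) in Ksp-Cre/PRDM16flox/flox mice, a ratio of 65.6% on this scale against 57.7% for summed CPM. The make-up of the subunit pool differed slightly. The N module held 15.2% and 14.7% of subunit TPM in PRDM16flox/flox mice and 15.8%, 15.9% and 16.5% in Ksp-Cre/PRDM16flox/flox mice, the Q module 21.7% and 21.8% against 22.3%, 21.9% and 22.3%. For the proximal P module the shares were 24.5% and 24.2% against 23.9%, 23.7% and 23.7%. For the distal P module they were 37.6% and 38.3% against 36.9%, 37.5% and 36.6%. The N and Q modules thus took a larger share, and both P modules a smaller one, in every Ksp-Cre/PRDM16flox/flox mouse, with the groups nearest to each other for the Q module. Assembly factor TPM per 100 subunit TPM was 3.78 and 3.45 in PRDM16flox/flox mice and 4.64, 4.92 and 4.24 in Ksp-Cre/PRDM16flox/flox mice. TPM uses a fixed length per gene and does not remove a length trend that differs between libraries. Median lengths were 1557 bp for the N module, 1067 bp for the Q module and 690.5 bp for the P module. The part of such a trend in these shares and in the assembly factor ratio was not tested.

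**Figure D4:**
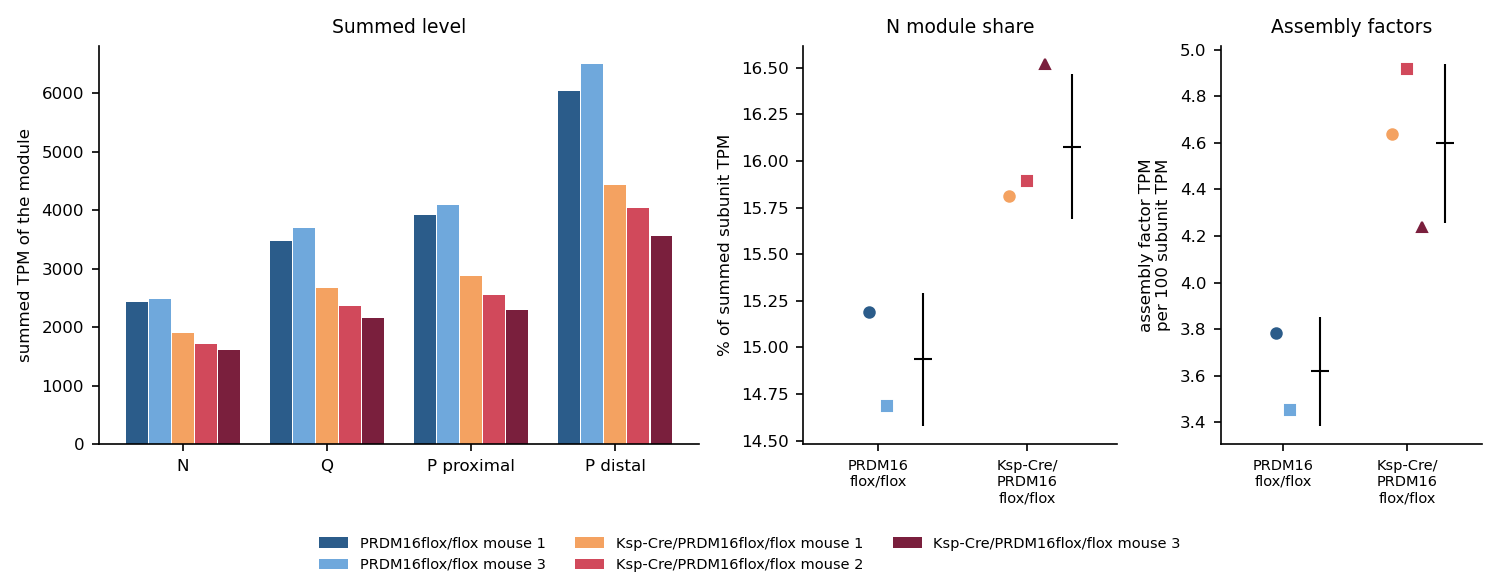
Left, summed TPM of the N, Q, proximal P and distal P modules in each mouse (bars). Middle and right, the N module's share of summed subunit TPM (%) and assembly factor TPM per 100 subunit TPM (points are mice, black marks the mean ± SD of n = 2 and n = 3); these axes do not start at 0, and the genotypes do not overlap in either.

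Assembly factors differed less between genotypes than subunits did, and none was called (0 of 14 with edgeR). Part of that gap went with gene length: with the length trend removed, the medians were -0.37 for assembly factors and -0.53 for subunits. Whether the classes differ from each other was not tested. All 14 had a negative log2 fold change (median -0.48, range -0.93 to -0.14), 10 had an unadjusted p under 0.05 (11.2% of all genes in the lower direction), and in 12 the Ksp-Cre/PRDM16flox/flox mice all lay below both controls (21.3% of all genes). Their summed level was 555 and 604 CPM against 427, 405 and 351 CPM. Ksp-Cre/PRDM16flox/flox mouse 3 was the lowest of the 5 mice for 11 of the 14 factors. DESeq2 called 5 lower (5.96% of all genes) and edgeR without that mouse 7 (11.0% of all genes), with a median of -0.41.

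The factors that build the Q module spread widely. Ndufaf3, which pairs with Ndufaf4 at the first step of Q module assembly, had the lowest log2 fold change, with 23.3 and 33.6 CPM against 16.5, 14.3 and 13.9 CPM (log2 fold change -0.93, SE 0.20, adjusted p = 0.0805); the PRDM16flox/flox mice differed widely for it. Ndufaf4 had a log2 fold change of -0.65 (SE 0.17, adjusted p = 0.121), and Ndufaf6, which acts at the same stage, one of -0.81 (SE 0.21, adjusted p = 0.121). Ndufaf5, which modifies an arginine of Ndufs7, was at 19.3 and 21.6 CPM against 18.6, 16.1 and 8.93 CPM (log2 fold change -0.49, SE 0.31, adjusted p = 0.441), a value set largely by Ksp-Cre/PRDM16flox/flox mouse 3, without which it was -0.23. Ndufaf7, a methyltransferase, and Ndufaf8, the partner of Ndufaf5, had log2 fold changes of -0.34 and -0.44 (adjusted p = 0.197 and 0.291), and Timmdc1, which joins the Q module to the membrane arm, one of -0.40 (adjusted p = 0.239). Nubpl, which delivers iron-sulfur clusters, was at 13.7 and 11.8 CPM against 11.4, 11.9 and 11.4 CPM, with overlapping groups and the smallest difference of all members (log2 fold change -0.14, SE 0.16, adjusted p = 0.678).

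Ndufaf1, Acad9, Ecsit and Tmem126b, which had a median log2 fold change of -0.59, belong to the MCIA complex that builds the membrane arm. Ecsit was at 63.5 and 73.0 CPM against 42.5, 42.5 and 40.2 CPM, the lowest adjusted p of the assembly factors (log2 fold change -0.71, SE 0.11, adjusted p = 0.0532). Acad9, an acyl-CoA dehydrogenase relative, was at 87.8 and 100.3 CPM against 61.5, 63.8 and 40.6 CPM (log2 fold change -0.77, SE 0.21, adjusted p = 0.137; -0.58 without Ksp-Cre/PRDM16flox/flox mouse 3). Ndufaf1 had a log2 fold change of -0.47 (SE 0.12, adjusted p = 0.119). For Tmem126b the groups overlapped, with 25.8 and 22.9 CPM against 21.1, 23.7 and 19.5 CPM (log2 fold change -0.18, SE 0.15, adjusted p = 0.543). Of the factors of the last steps, Ndufaf2, a paralog of Ndufa12 that acts on the N module, had a log2 fold change of -0.54 (SE 0.18, adjusted p = 0.201), and Foxred1, an oxidoreductase, one of -0.35 (SE 0.10, adjusted p = 0.158). With the length trend removed, Tmem126b and Ndufaf8 lay at or above 0 (0.12 and 0.01 on the log2 scale).

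Ndufa4 was first described as a complex I subunit and later assigned to complex IV. It was the member with the highest TPM, and it was at 371 and 360 CPM against 221, 194 and 219 CPM (log2 fold change -0.79, SE 0.12, adjusted p = 0.0523). The near copies Ndufb4b, Ndufs6b and Ndufb4c had at most 4.23 CPM in any mouse and log2 fold changes of -1.27, -1.10 and -0.81, none called. Reads of such copies may be shared with Ndufb4 and Ndufs6, so that their values are uncertain. Ndufb4c was at 2.56 and 4.23 CPM against 1.42, 2.72 and 1.67 CPM, with overlapping groups. Of all members, 11 share exon bases with another listed gene, among them Ecsit (32.9% of its bases, with Gm16845), Ndufa1 (31.2%, with Gm39503), Ndufa13 (29.6%, with Tssk6), Ndufb11 (29.0%, with Rbm10), Ndufv2 (27.7%, with Ankrd12), Ndufb1 (23.3%, with Cpsf2) and Ndufa2 (11.5%, with Tmco6). Ndufv2 and Ankrd12 lie on the same strand, so that counting by strand would not tell them apart, and the other pairs named lie on opposite strands. Whether counting used the strand is not given in the sources used here, so values of these genes may include reads of their neighbours.

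The other respiratory complexes were lower too. Median log2 fold changes were -0.62 for complex II (4 subunits) and -0.82 for complex III (9). They were -0.83 for complex IV (10) and -0.83 for the ATP synthase, complex V (17). All of their subunits were lower, against 7537 of the 16394 genes tested. In complexes II to V, 0, 4, 1 and 5 were called lower, against 0.872% of all genes. Genes of the cytosolic ribosome (median length 821 bp) had a median of -0.12 over 77 genes, 56 of them lower and 0 called by edgeR. Of the 77, 8 had an unadjusted p under 0.05 in the lower direction (11.2% of all genes). DESeq2 called 4 lower (5.96% of all genes). The ribosome median was -0.21 without Ksp-Cre/PRDM16flox/flox mouse 3. With the length trend removed, medians were -0.52, -0.58, -0.40 and -0.54 for complexes II to V and 0.17 for the ribosome. The part of gene length in these values was not tested. No statement that complex I differs from complexes III to V follows from these values.

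Of 9 regulators of mitochondrial biogenesis none was called by edgeR. An unadjusted p under 0.05 in the lower direction was found for 3 (11.2% of all genes), and DESeq2 called 1 lower (5.96% of all genes). Ppargc1a, which encodes the coactivator PGC-1α, was at 72.6 and 71.8 CPM against 51.4, 55.5 and 53.2 CPM (log2 fold change -0.44, SE 0.10, adjusted p = 0.102), with the groups apart. Esrra, encoding the receptor ERRα, had a log2 fold change of -0.58 (adjusted p = 0.209), Tfam, which transcribes and packs mitochondrial DNA, one of -0.45 (adjusted p = 0.125), and Esrrg one of -0.44 (adjusted p = 0.457). Of the other factors named with the promoter strings above, Nrf1 lay at 0.18, Gabpa at 0.01 and Yy1 at 0.12 on the log2 scale (adjusted p = 0.476, 0.978 and 0.587). Ppargc1b was at 0.08 and Pprc1 at 0.39.

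Markers of kidney cells differed as well. All 14 proximal tubule markers were lower, against 7537 of the 16394 genes tested. Their median log2 fold change was -1.50, and 3 were called, against 0.872% of all genes called lower. Their summed level was 25874 and 31879 CPM against 8192, 10154 and 12426 CPM. In single Ksp-Cre/PRDM16flox/flox mice, the median deviation from the PRDM16flox/flox mean on the log2 scale was -1.47, -1.39 and -1.85 for these markers, -0.75, -0.92 and -0.89 for complex I subunits and -0.35, -0.45 and -0.71 for assembly factors. The 4 markers each of the thick ascending limb, distal convoluted tubule, principal cell, intercalated cell and podocyte had medians of -0.68, -1.0, -0.60, -0.91 and -0.74, with all members lower and 1 podocyte marker called. Without Ksp-Cre/PRDM16flox/flox mouse 3 these medians were -0.40, -0.70, -0.51, -0.88 and -0.74. Pvalb of the distal convoluted tubule was the only marker at 0 in a library. Medians were -0.13 for endothelium (5 genes), 0.25 for macrophages (6), 0.76 for fibroblasts (6), 3.93 for erythroid cells (5) and 1.14 for tubular injury (8). None of these markers was called, where only 17 of the 16394 genes tested were called higher and 143 lower. All fibroblast, erythroid and injury markers were higher, against 8857 of the 16394 genes tested. Summed injury markers were at 15002 and 15562 CPM against 32164, 32755 and 38109 CPM, and summed fibroblast markers at 475 and 709 CPM against 1193, 1167 and 812 CPM. The part of these changes in the complex I values was not tested, and in bulk tissue fewer mitochondria-rich cells and less RNA per cell cannot be told apart.

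**Figure D5:**
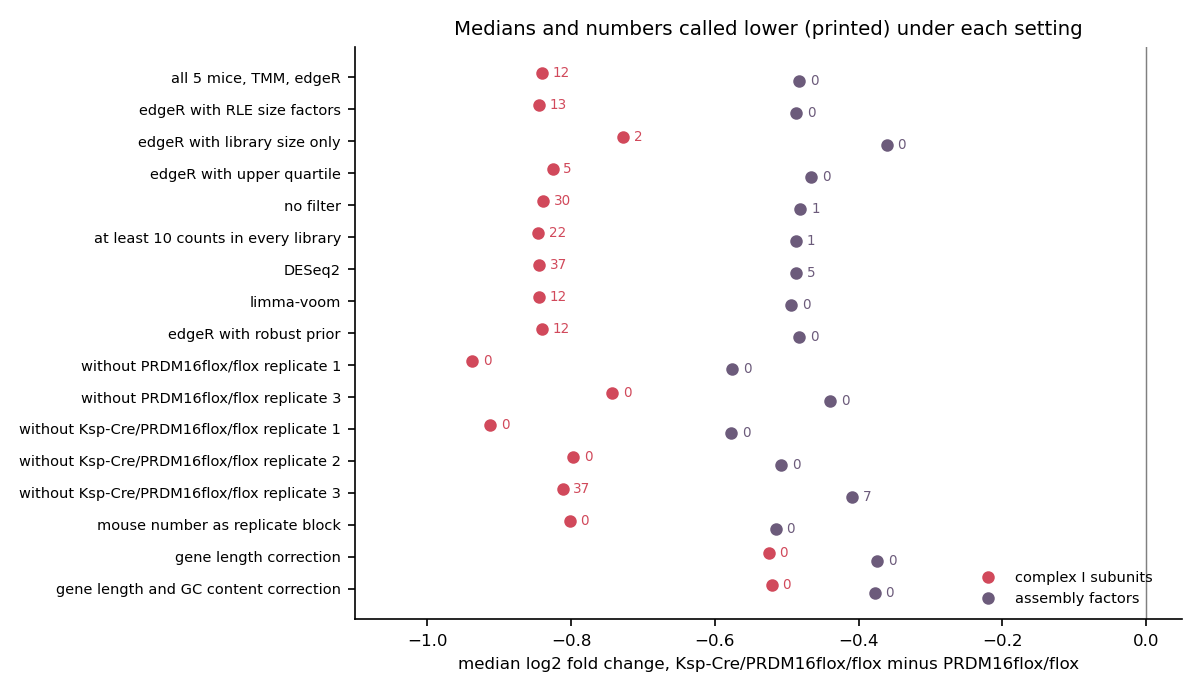
Median log2 fold change (x axis) of the 37 complex I subunits and the 14 assembly factors under each setting (y axis); the number beside a point is how many were called lower. Every median lies below 0, between -0.94 and -0.52 for subunits, while the number of subunits called goes from 0 to 37.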

How the data were processed

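RNA-seq of 5 mouse kidneys was analysed, with genotypes from the sample labels. The authors deposited raw read counts per gene, beside TPM and FPKM, which were recomputed from the counts within rounding. The submitters' processing notes name CASAVA, featureCounts 2.0.1, DESeq2 1.16.1 and the human build hg38, which cannot be the build of these mouse genes; the aligner and mouse build are not given in the sources used here. The lines of 5 genes were rejoined, and 9845 genes had 0 counts in all libraries.

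Low counts were filtered by filterByExpr (edgeR 4.0.16, R 4.3.3). Libraries were TMM-scaled, and the genotypes were compared with edgeR's quasi-likelihood test, no covariates, tested first on simulated data. Members, modules, lists of other complexes, ribosome, regulators and cell markers, and promoter strings were chosen with earlier results of these data known. Values per mouse are printed for core subunits, for the lowest and highest log2 fold change of each module and of the assembly factors, for members whose groups overlap, and for Ndufa4 and Ndufab1; called members and all assembly factors are named. The values of 1 core subunit are not reported here; it is counted in the summaries. Values per mouse of Ndufa1, Ndufb1, Ndufb4, Ndufb10, Ndufaf5, Acad9, Ecsit, Ppargc1a and Esrrg were added after they were seen.

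Alternatives were other scalings and filters, DESeq2 1.42.0, limma-voom 3.58.1, fits without each mouse in turn or with mouse number as block, and a loess correction (span 0.3) for gene length, or for length and GC content (93.9% of tested genes had a value). Deviations of mice with the same number correlated at 0.001 and -0.022, so the numbers were not taken as pairs. P-values set the difference between genotypes against the spread between these mice, with each gene's spread estimated using the other genes as well.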

Additional observations from a re-analysis of the deposited data

How the results depend on the processing

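The direction held for all 37 subunits under the 16 alternatives run, and the number called lower (12) did not. It was 2 with library size only, where 37 of all 16394 genes were called lower, against 143 in the main fit. It was 5 with upper quartile scaling (102 of 16394 genes), 22 with at least 10 counts in every library (192 of 14796) and 30 without a filter (408 of 25633). DESeq2 called 37 (902 of 15122 genes), and 6 were left with a log2 fold change of at least 1 added (103 of 16394). Corrections for gene length and for length and GC content both gave 0 called, where 73 of 16394 and 41 of 15390 genes were called lower. They moved the median from -0.84 to -0.53 and -0.52. Library size only moved the median to -0.73, with the median of all genes at 0.15 in place of 0.04. Leaving out 1 mouse gave 0 to 37 subunits called, 37 without Ksp-Cre/PRDM16flox/flox mouse 3 and 0 without any of the other mice, and medians of -0.94 to -0.74. With the mouse number as a block, 0 subunits and 0 of all 16394 genes were called, with 2061 genes at an unadjusted p under 0.05. The subunit median was then -0.80, and 2 shared numbers do not pair the mice.

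For the assembly factors, 0 were called, against 1 without a filter (408 of 25633 genes) and 1 with at least 10 counts in every library (192 of 14796). DESeq2 called 5 (902 of 15122 genes), and 0 to 7 were called with 1 Ksp-Cre/PRDM16flox/flox mouse left out (0 to 1787 genes). Their median kept its sign in all settings, with -0.58 to -0.41 over the fits without 1 mouse. Tmem126b turned to 0.12 with the length correction and 0.14 with length and GC content, and Ndufaf8 to 0.0118 and 0.0019; the cause was not tested. Over 879 single-member values, 673 kept direction and side of the threshold, 102 lost a call, 100 gained one and 4 turned direction. With 2 and 3 mice, small differences such as those of Tmem126b and Nubpl could not be detected at this size.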

Other observations

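Beyond the 55 genes, 6 further genes that other work ties to complex I assembly were read after the values above were known (Dmac1, Dmac2, Tmem70, Tmem186, Aifm1 and Lyrm2). All 6 had negative log2 fold changes, in 4 the Ksp-Cre/PRDM16flox/flox mice all lay below both controls (21.3% of all genes tested), 3 had an unadjusted p under 0.05 (11.2% of all genes in the lower direction), and none was called by edgeR. Dmac2, a factor of the distal membrane arm, was at 85.1 and 83.8 CPM in PRDM16flox/flox mice and at 56.9, 56.5 and 57.4 CPM in Ksp-Cre/PRDM16flox/flox mice (log2 fold change -0.57, SE 0.10), and Tmem70, which also serves ATP synthase assembly, at 68.5 and 77.6 CPM against 52.4, 50 and 44.5 CPM (log2 fold change -0.58, SE 0.12). Tmem186, a partner of the MCIA complex, was at 24.8 and 25.9 CPM against 25.3, 21.7 and 22.7 CPM (log2 fold change -0.12, SE 0.13), with overlapping groups. Ndufa4l2, the paralog of Ndufa4 known to rise in hypoxia, was at 2.90 and 2.94 CPM against 3.52, 3.96 and 2.47 CPM (log2 fold change 0.18, SE 0.30), also with overlapping groups.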
